A study of Mus musculus with 9 samples.

Results

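The nuclear genome of the mouse encodes most of the subunits of the 5 complexes of oxidative phosphorylation, and their transcripts were followed in 9 RNA sequencing libraries of primary renal tubular epithelial cells from C57BL/6 mouse kidney. Members were taken by name: protein-coding rows of the deposited table whose symbol starts with Nduf followed by a, b, c, s or v and a number (complex I), is Sdha, Sdhb, Sdhc or Sdhd (complex II), or starts with Uqcr (complex III), Cox4 to Cox8 (complex IV) or Atp5 (complex V). This gave 81 of 31167 genes, of which 77 passed a filter of a mean of at least 0.5 FPKM and were tested. FPKM divides the fragments of a gene by its exon length in kilobases and by the depth of the library. Sham cells were the negative control. H/R cells were kept for 6 h in glucose-free medium at 1.0% oxygen and then for 18 h in complete medium under normal conditions, a culture model of ischemia and reperfusion. EGR1OV cells were transfected with a plasmid that drives Egr1 from a CMV promoter. Each group had 3 libraries. The labels name no empty-plasmid group, so Egr1 and transfection itself cannot be told apart in the comparisons with EGR1OV. The labels do not say whether the 3 libraries of a group came from separate mice or cultures, and p-values therefore measure only the spread between these libraries.

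The respiratory chain passes electrons from NADH at complex I and from succinate at complex II through ubiquinone to complex III, then through cytochrome c to complex IV, which reduces oxygen. Complexes I, III and IV pump protons across the inner mitochondrial membrane, and complex V, the ATP synthase, uses the gradient to make ATP. All but complex II are assembled from subunits of both genomes, so nuclear transcripts made in the nucleus and transcripts made inside the mitochondrion contribute to the same enzyme. Kidney tubules, the proximal segments above all, meet the energy cost of solute reabsorption largely by oxidative phosphorylation.

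Egr1, an immediate early transcription factor, measured 6.20, 6.91 and 6.09 FPKM in Sham, 8.57, 7.59 and 7.48 FPKM in H/R and 45.7, 42.2 and 40.1 FPKM in EGR1OV, a log2 change against Sham of 2.56 in EGR1OV and 0.26 in H/R (adjusted p = 2.19e-09 and 0.0348), in the direction of the labels. Depth was 16183617 to 18384022 reads recovered per library. The tubular epithelial markers with the highest values were the keratins Krt8 and Krt18, whereas Umod, Slc12a3 and Slc34a1, which mark differentiated segments, were at 0 or near it, and the summed FPKM of the 15 markers found (of 16) lay at 1895 to 1933 in Sham, at 1751 to 1829 in H/R and at 1233 to 1337 in EGR1OV. The lower sum in EGR1OV came mostly from Krt8 and Krt18. Their means were 1013.5 and 685 FPKM in Sham and 618 and 412 FPKM in EGR1OV. The other tubular markers moved both ways. Cdh1, Epcam and Pax2 had means of 86.2, 76.2 and 14.6 FPKM in Sham and 102, 100.4 and 19.1 FPKM in EGR1OV. Cdh16 and Lrp2 were lower, with means of 24.28 and 3.599 FPKM in Sham and 19.59 and 1.224 FPKM in EGR1OV. The low mean of Aqp1 was also lower in EGR1OV than in Sham. The 10 macrophage markers summed to 145 to 149.9 FPKM in Sham, 122 to 128 FPKM in H/R and 39.3 to 46.4 FPKM in EGR1OV, although Cd14 had a mean of 5.46 FPKM in Sham and 17.95 FPKM in EGR1OV. The 7 endothelial markers summed to 16.3 to 17.0 FPKM in Sham, 16.6 to 17.8 FPKM in H/R and 13.3 to 14.3 FPKM in EGR1OV, and the 7 fibroblast markers to 32.8 to 34.5 FPKM in Sham, 39.3 to 40.6 FPKM in H/R and 37.9 to 42.9 FPKM in EGR1OV. Of the 7 striated muscle markers found, Acta1 accounted for nearly the whole sum, which lay at 119.9 to 127 FPKM in Sham, 91.6 to 103 FPKM in H/R and 18.6 to 20.6 FPKM in EGR1OV, and Ckm, Myh1 and Myh4 were at or near 0. The part of other cell types in the subunit values was not tested, and in bulk RNA fewer cells of a type and less RNA per cell cannot be told apart.

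Most subunits were abundant in Sham cells. Of the 81 members, 67 had a Sham mean of at least 10 FPKM and 6 of at least 100 FPKM. Median levels in Sham were 25.3 FPKM over the 37 complex I genes, 40.1 FPKM over the 4 complex II genes, 52.8 FPKM over the 8 complex III genes, 50.9 FPKM over the 16 complex IV genes and 32.1 FPKM over the 16 complex V genes. FPKM is per base of all annotated exons of a gene, which can exceed the length of its transcript, so levels compare only roughly between genes. Atp5l, at a mean of 2.21 FPKM over all libraries, has 6443 such bases, and Ndufb2, at 0.459 FPKM, has 5628. The most abundant member of each complex over all libraries was Ndufa4, Sdhd, Uqcr10, Cox6a1 and Atp5b respectively, and the ATP synthase beta subunit gene Atp5b was the highest of all, at 259 ± 4.88 FPKM in Sham (SD, n = 3). The lowest of each complex were Ndufa4l2, Sdhc, Uqcrc1, Cox8b and Atp5l. Not tested were Ndufb2, Ndufa4l2, Cox6a2 and Cox8b, and the last of these was listed at 0 in 7 of 9 libraries. Replicates of a group lay close together for most members. The median coefficient of variation over the 77 tested members was 4.53% in Sham, 5.46% after H/R and 4.10% with EGR1OV. The widest spread was that of the complex I core subunit gene Ndufs3, with 3.71, 2.11 and 7.37 FPKM in Sham.

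Promoter windows, from 250 bases before to 50 bases after the start site, were read from RefSeq (GRCm38.p6) for the 65 members whose symbol matched. They were searched on both strands for 6 motifs of factors that are known to act on such genes or that the design concerns: Nrf1 (nuclear respiratory factor 1, GCGCANGCG), Ets and Gabp (CCGGAAG), Yy1 (AANATGGC), Esrra (TNAAGGTCA), Hif (ACGTG) and Egr1 (GCGNGGGCG). The Nrf1 motif was found in 20 of 65 members (30.8%) and in 7.03% of the 27025 genes of the promoter table. The Ets and Gabp motif was found in 16 members (24.6%, against 9.93% of all genes), the Yy1 motif in 16 (24.6%, against 6.96%), the Hif motif in 16 (24.6%, against 21.8%) and the Esrra motif in 3 (4.62%, against 1.43%). The Egr1 motif was found in 2 members, Atp5g2 and Atp5j (3.08%, against 6.27%). No match of one motif overlapped a match of another, and 15 of the 65 members held none of them. Among the matched members that were tested, the Nrf1 motif was in 12 of 36 that were lower in EGR1OV than in Sham and in 8 of the other 27, and the Egr1 motif in 2 of 36 and in 0 of 27. A match describes these letters and not binding. The windows of 4 members are shown because Ndufa5 had the largest fall in EGR1OV against Sham, Ndufs7 the largest rise in EGR1OV against H/R, and Ndufb10 and Atp5g1 were the members called with a fold threshold in H/R against Sham. They are printed 5′ to 3′ with the matches in capitals, the first on chr6:24527641-24527940, minus strand, the second on chr10:80249199-80249498, plus strand, the third on chr17:24724374-24724673, minus strand and the fourth on chr11:96075582-96075881, minus strand.
Ndufa5: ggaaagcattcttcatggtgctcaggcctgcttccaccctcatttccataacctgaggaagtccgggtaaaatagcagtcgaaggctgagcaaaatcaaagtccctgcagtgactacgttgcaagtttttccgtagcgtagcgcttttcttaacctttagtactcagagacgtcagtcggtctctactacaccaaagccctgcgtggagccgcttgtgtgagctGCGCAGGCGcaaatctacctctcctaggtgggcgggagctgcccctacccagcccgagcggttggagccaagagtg
Ndufs7: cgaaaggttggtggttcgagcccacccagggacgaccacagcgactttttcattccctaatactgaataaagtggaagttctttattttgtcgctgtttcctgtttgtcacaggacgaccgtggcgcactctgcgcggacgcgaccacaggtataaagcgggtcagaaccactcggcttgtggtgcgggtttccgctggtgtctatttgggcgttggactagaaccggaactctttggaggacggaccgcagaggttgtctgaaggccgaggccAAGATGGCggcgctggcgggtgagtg
Ndufb10: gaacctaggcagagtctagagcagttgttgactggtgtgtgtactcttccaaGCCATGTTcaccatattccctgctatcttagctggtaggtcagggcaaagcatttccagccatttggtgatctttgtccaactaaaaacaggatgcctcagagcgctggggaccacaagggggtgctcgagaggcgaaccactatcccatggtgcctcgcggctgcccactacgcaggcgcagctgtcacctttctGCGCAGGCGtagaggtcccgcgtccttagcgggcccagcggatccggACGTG
Atp5g1: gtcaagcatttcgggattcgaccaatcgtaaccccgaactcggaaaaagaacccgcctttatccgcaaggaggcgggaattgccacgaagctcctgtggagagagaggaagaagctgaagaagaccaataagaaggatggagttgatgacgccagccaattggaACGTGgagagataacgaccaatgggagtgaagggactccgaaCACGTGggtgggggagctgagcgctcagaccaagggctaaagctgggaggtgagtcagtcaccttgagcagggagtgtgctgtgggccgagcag
In Ndufa5, which has another start site in the table, the capitals are an Nrf1 match that begins 26 bases before the start site. In Ndufs7 they are a Yy1 match that begins 25 bases after it. In Ndufb10 they are, from 5′ to 3′, a Yy1, an Nrf1 and a Hif match. In Atp5g1 they are Hif matches, of which the second, CACGTG, is read on both strands.

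The first comparison, EGR1OV against Sham, asked which subunits changed with Egr1 overexpression. More nuclear-encoded subunits were lower than higher, by a small amount. In limma, 40 of the 77 tested members were lower and 2 were higher at an adjusted p under 0.05. Among all 13985 genes tested, 19.8% were lower and 26.1% were higher by the same rule. The median log2 change of the members was −0.15 (−9.64%), against 0.017 over all genes, and 67 of 77 members had a log2 change under 0. All log2 changes are on the log2(FPKM + 1) scale. In 47 members the 3 EGR1OV values all lay under the 3 Sham values, against 24.6% of all genes. On this scale no member reached 1.3-fold at an adjusted p under 0.05, or at an unadjusted p under 0.05, whereas 16.4% of all genes did at the adjusted p. This count depends on the scale. By mean FPKM without the added 1, Ndufa5 was at 0.767 of Sham (−23.3%), just past 1.3-fold. Over 21 settings its log2 change ran from −0.46 to −0.33, and that of Ndufc1 from −0.41 to −0.26. The count of lower members was 25 without Sham replicate 3 and 23 without EGR1OV replicate 1, and 18 members stayed past the threshold under all 20 alternative settings.

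In the second comparison, H/R against Sham, which concerned the response to hypoxia and reoxygenation, more members were lower than higher. In limma 24 of 77 members were lower and none was higher at an adjusted p under 0.05, against 7.54% and 4.15% of all genes. At an unadjusted p under 0.05, 46 members were lower and 0 higher, against 2582 lower and 1338 higher of all 13985 genes tested. Limma voom on recovered reads gave 29 lower and 0 higher members, and its share over all genes is not given. The median log2 change was −0.13 (−8.35%), against −0.030 over all genes. The 3 H/R values lay under the 3 Sham values in 44 members, against 21.8% of all genes. At 1.2-fold and an adjusted p under 0.05, 2 members were called, Atp5g1 and Ndufb10, against 4.25% of all genes. This count of lower members depended on single libraries more than the first. It was 7 without H/R replicate 3, 8 without Sham replicate 3, 9 without Sham replicate 1, 10 without Sham replicate 2 and 14 without H/R replicate 2, and it was 6 after a trend with exon length was removed. How the share of all genes moved under these settings is not given. Ndufb10 and Atp5g1 were past the threshold under every alternative. Both comparisons use the same 3 Sham libraries, so the fall in one is not independent of the fall in the other.

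**Figure D1:**
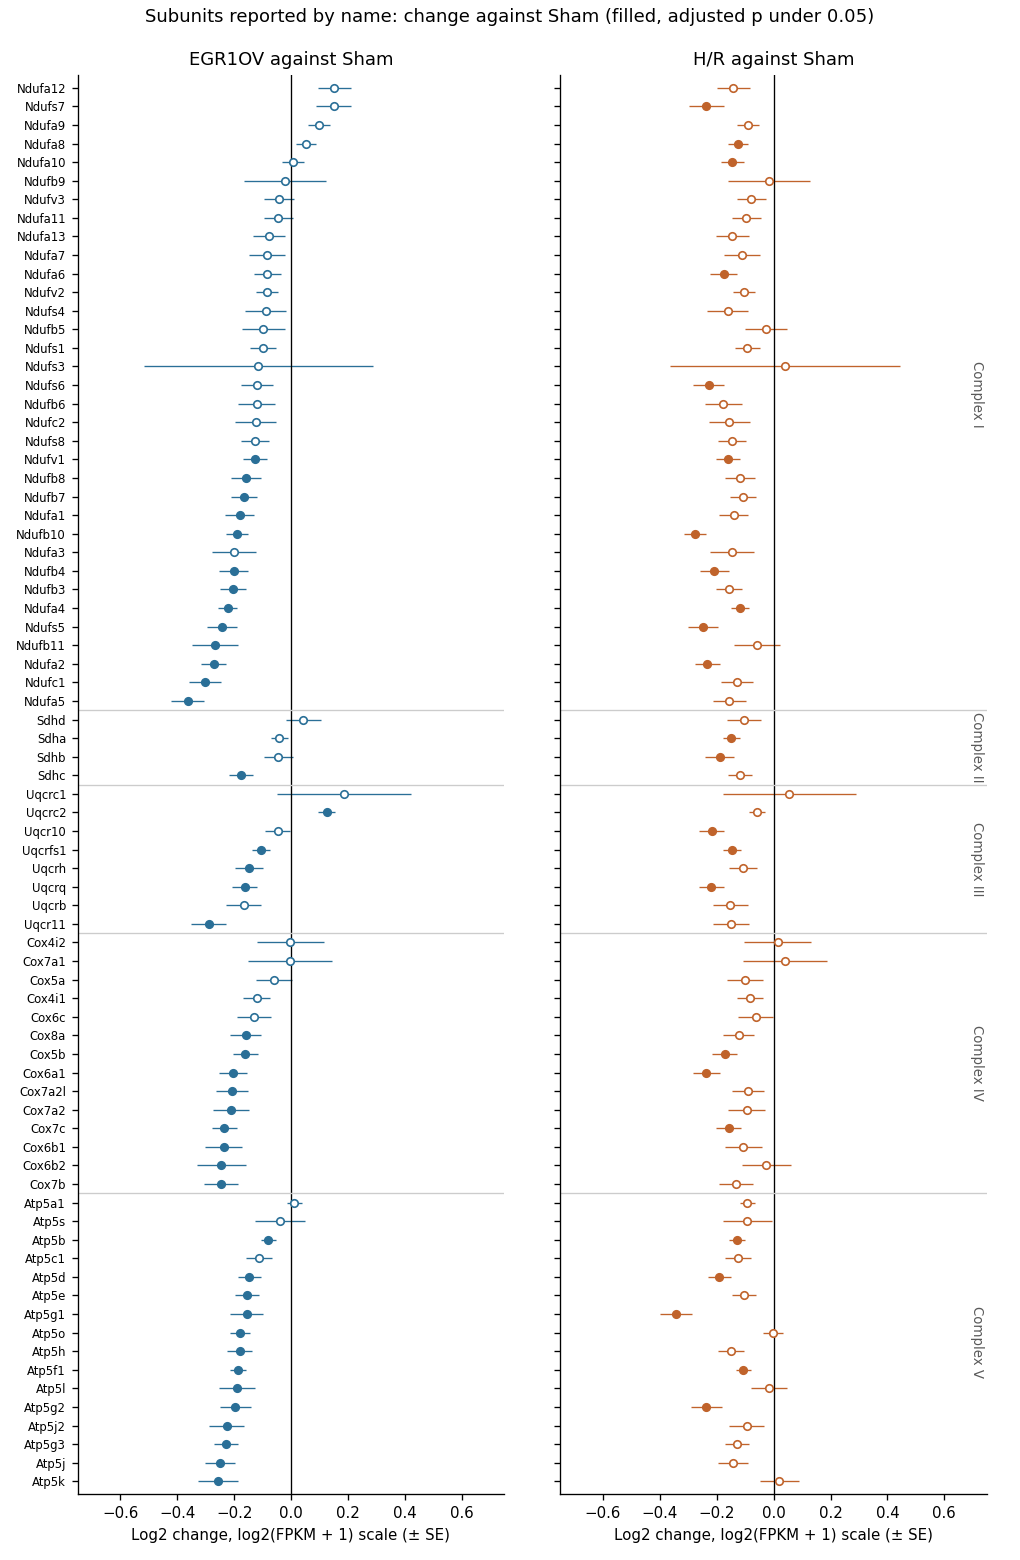
Log2 change with its SE for the tested subunits that are reported by name, grouped by complex and ordered within a complex by the change in EGR1OV, in EGR1OV against Sham (left) and H/R against Sham (right), with filled points at an adjusted p under 0.05. Filled points lie left of 0 except that of Uqcrc2 in EGR1OV, and the long error bars belong to Ndufs3 and Uqcrc1.

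The third comparison, EGR1OV against H/R, set the groups side by side without Sham. In limma 12 of 77 members were higher and 7 were lower in EGR1OV, against 32% and 19% of all genes, and the median log2 change of the members was 0.0068, against 0.055 over all genes. Of the members, 1 was called at 1.3-fold, Ndufs7, against 18.9% of all genes. The split changed with the scaling. It was 6 higher and 19 lower with median-ratio scaling, 6 and 26 with quantile normalization, 7 and 17 with the length trend removed, and 7 and 20 with libraries scaled to their protein-coding sum, and the median was then −0.054, −0.081, −0.041 and −0.049. The lower count was 12 without H/R replicate 3, 2 without EGR1OV replicate 2, and 4 without H/R replicate 1, H/R replicate 2 or EGR1OV replicate 1. For all genes, shares under these settings are not given. Among the members higher under all 20 alternatives were Ndufs7, Ndufa12, Ndufa8 and Uqcrc2, and lower were Atp5k and Atp5o.

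Summed over members, Sham libraries held 3642 ± 79.96 FPKM, H/R libraries 3299.6 ± 116 FPKM and EGR1OV libraries 3328 ± 58.1 FPKM (SD, n = 3). This was 1.40 ± 0.0235%, 1.28 ± 0.0367% and 1.28 ± 0.0175% of the FPKM of all protein-coding genes. By library the sum ran from 3569 to 3728 in Sham, from 3169.6 to 3391 in H/R and from 3282 to 3393 in EGR1OV, so every library of either group lay under every Sham library. The mean sum of complex IV was lowest in EGR1OV, at 931 ± 26.0 against 1064 ± 35.4 in Sham and 966 ± 43.7 in H/R. By library, EGR1OV at 913 to 961 overlapped H/R at 915 to 992. Complex II in EGR1OV, at 169 ± 7.001, overlapped Sham at 172 ± 5.12, and H/R was lower at 156 ± 4.97. These sums weigh abundant genes most, and no test was made on them.

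**Figure D2:**
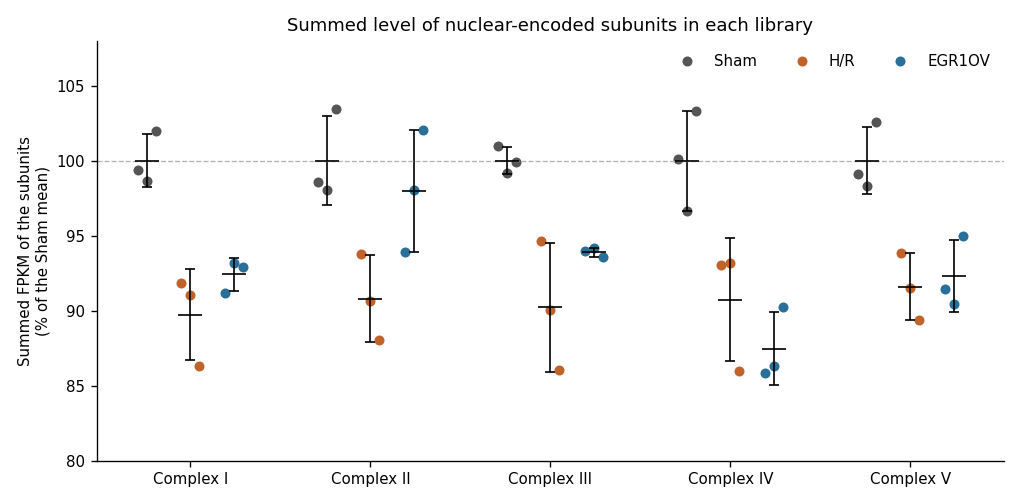
Summed FPKM of the subunits of each complex in each library, as a percent of the Sham mean, with the mean and SD (n = 3) in black. H/R libraries lie under all Sham libraries in every complex, and EGR1OV libraries do so in complexes I, III, IV and V but not in complex II.

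In complex I, 35 of 37 genes were tested. In EGR1OV 13 were lower and 1 was higher than in Sham, and in H/R 11 were lower and 0 higher (0 higher also at an unadjusted p under 0.05 and with limma voom). The shares of all genes were 19.8% lower and 26.1% higher in EGR1OV, and 7.54% lower and 4.15% higher in H/R. Among the 27 accessory subunits tested, which surround the core, 11 were lower and 0 higher in EGR1OV, with 2 higher at an unadjusted p under 0.05, and limma voom gave 2 higher over the whole complex. The largest fall was that of Ndufa5, an accessory subunit of the matrix arm (chr6:24518666-24528013). Ndufa5 measured 18.4, 19.3 and 18.9 FPKM in Sham, 16.6, 18.2 and 15.8 FPKM in H/R and 14.1, 13.8 and 15.6 FPKM in EGR1OV. All EGR1OV values were under all values of the other groups (log2 change −0.36 ± 0.057 (SE), adjusted p = 7.01e-04 against Sham), and the H/R values were under Sham without passing the test (log2 change −0.16 ± 0.057 (SE), adjusted p = 0.115). Ndufc1, a small accessory subunit of the membrane arm, measured 11.4, 11.4 and 12.1 FPKM in Sham and 9.14, 8.72 and 9.90 FPKM in EGR1OV (log2 change −0.30 ± 0.057 (SE), adjusted p = 0.00210). All EGR1OV values again lay under all Sham values. Ndufa2 (−0.27) and Ndufb11 (−0.27) completed the 5 largest falls together with the complex III gene Uqcr11, and Ndufb11 had an adjusted p of 0.0229 and passed in 15 of 20 alternatives. On the other strand, Ndufb11 shares 12.9% of its exon bases with Rbm10, and Ndufa2 shares 11.5% with Tmco6.

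Among the core subunits, which carry the flavin, the iron-sulfur clusters and the quinone site, Ndufs7, which holds the last iron-sulfur cluster before ubiquinone (chr10:80249121-80256794), measured 18.3, 16.4 and 14.9 FPKM in Sham, 13.8, 13.7 and 13.98 FPKM in H/R and 17.6, 18.6 and 19.0 FPKM in EGR1OV. Its H/R values were the tightest and lay under both other groups, and EGR1OV overlapped Sham. Ndufs7 fell in H/R (log2 change −0.24 ± 0.062 (SE), adjusted p = 0.0395), which passed in 5 of 20 alternatives, and it was higher in EGR1OV than in H/R (log2 change 0.39 ± 0.062 (SE), adjusted p = 6.38e-04), which passed in all. Ndufv1, which binds NADH and the flavin, was lower in both groups (log2 change −0.13 in EGR1OV and −0.16 in H/R, adjusted p = 0.0321 and 0.0382), in 13 and 7 of 20 alternatives. Ndufs1, Ndufs8 and Ndufv2 had log2 changes of −0.10, −0.13 and −0.085 in EGR1OV and −0.093, −0.15 and −0.10 in H/R, and none passed. Ndufs3, with 5.73, 2.05 and 5.49 FPKM in H/R and 5.06, 3.65 and 2.43 FPKM in EGR1OV, overlapped in every comparison.

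In H/R the largest fall in complex I was that of Ndufb10, an accessory subunit of the membrane arm (chr17:24722060-24724478). It measured 39.4, 42.7 and 42.0 FPKM in Sham, 34.0, 35.2 and 32.8 FPKM in H/R and 36.7, 35.1 and 36.6 FPKM in EGR1OV. Every H/R and EGR1OV value lay under every Sham value (log2 change −0.28 ± 0.038 (SE), adjusted p = 0.00320 in H/R and log2 change −0.19 ± 0.038 (SE), adjusted p = 0.00299 in EGR1OV). Ndufs5, a subunit of the intermembrane space side, followed with 51.8, 50.8 and 47.3 FPKM in Sham, 43.1, 44.2 and 38.5 FPKM in H/R and 42.2, 41.5 and 42.5 FPKM in EGR1OV. It fell by almost the same amount in H/R and in EGR1OV (−0.25 and −0.24, adjusted p = 0.0182 and 0.00438), in 16 and 20 of 20 alternatives. Ndufa4 is named as a complex I gene, and its product is now placed in complex IV. It measured 78.7, 76.6 and 81.7 FPKM in Sham, 75.8, 71.0 and 71.5 FPKM in H/R and 67.7, 67.4 and 67.5 FPKM in EGR1OV, with no overlap between groups and the lowest level in EGR1OV (log2 change −0.22 ± 0.032 (SE), adjusted p = 4.31e-04). Its paralog Ndufa4l2, a gene known to be induced by hypoxia-inducible factor, was listed at 0 in 6 of 9 libraries and was highest in H/R replicate 2, at 0.298 FPKM. In EGR1OV against H/R, 6 of 35 complex I genes were higher, among them Ndufs7, Ndufa12, Ndufa9, Ndufa8 and Ndufa10, and 3 were lower (Ndufa5, Ndufc1 and Ndufa4). Both counts are smaller shares than the 32% and 19% of all genes.

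Complex II, succinate dehydrogenase, is encoded in the nucleus only, and all 4 genes were tested. Sdha, the flavoprotein, measured 45.1, 47.1 and 46.7 FPKM in Sham, 42.6, 42.2 and 40.2 FPKM in H/R and 44.2, 45.1 and 45.6 FPKM in EGR1OV. Sdhb, the iron-sulfur subunit, measured 32.4, 34.7 and 34.7 FPKM in Sham, 29.97, 30.9 and 28.0 FPKM in H/R and 31.6, 31.9 and 35.2 FPKM in EGR1OV. For both catalytic genes H/R lay under the other groups and EGR1OV overlapped Sham. In H/R Sdha and Sdhb fell (−0.15 and −0.19, adjusted p = 0.0151 and 0.0440), and in EGR1OV neither passed (−0.041 and −0.044, adjusted p = 0.303 and 0.516). In H/R the fall of Sdha passed in 17 and that of Sdhb in 5 of 20 alternatives. Against H/R both were higher in EGR1OV, Sdha by 0.11 and Sdhb by 0.15 on the log2 scale (adjusted p = 0.0137 and 0.0389), in 16 and 8 of 20 alternatives. The membrane anchor gene Sdhc was lower in EGR1OV, with 24.5, 26.0 and 26.9 FPKM in Sham and 22.0, 23.4 and 22.8 FPKM in EGR1OV (log2 change −0.18 ± 0.042 (SE), adjusted p = 0.00700), and in H/R it had a log2 change of −0.12 that did not pass. Sdhd, the other anchor, passed in no comparison.

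In complex III all 8 genes were tested. In EGR1OV 4 were lower and 1 was higher than in Sham, and in H/R 3 were lower and 0 higher, with 0 higher also at an unadjusted p under 0.05 and with limma voom. Of all genes, 19.8% were lower and 26.1% higher in EGR1OV, and 7.54% lower and 4.15% higher in H/R. The gene that rose was Uqcrc2, a core protein of the matrix side (chr7:120635176-120659524), with 46.2, 45.7 and 45.2 FPKM in Sham, 45.4, 43.7 and 42.5 FPKM in H/R and 49.8, 49.2 and 50.9 FPKM in EGR1OV. EGR1OV lay above both groups (log2 change 0.13 ± 0.029 (SE), adjusted p = 0.00634 against Sham), in 19 of 20 alternatives. On the other strand it shares 19.7% of its exon bases with Pdzd9, which had a mean of 0.103 FPKM. The other core gene, Uqcrc1, had 19.9, 27.5 and 12.0 FPKM in EGR1OV, spanning the 18.5, 16.4 and 14.5 FPKM of Sham, and its change could not be told from replicate spread. Uqcrfs1, the Rieske iron-sulfur protein, was lower in both groups, with 61.3, 58.5 and 64.0 FPKM in Sham, 55.5, 55.4 and 54.6 FPKM in H/R and 56.9, 57.1 and 56.5 FPKM in EGR1OV (log2 change −0.15 and −0.11, adjusted p = 0.0195 and 0.0216). These falls passed in 14 of 20 alternatives in H/R and in 15 in EGR1OV. The 5 small subunits all had log2 changes under 0 in both comparisons. Among these Uqcr11 fell most in EGR1OV, from 53.8, 57.1 and 56.5 FPKM in Sham to 47.6, 42.8 and 46.2 FPKM (log2 change −0.29 ± 0.062 (SE), adjusted p = 0.00424). Uqcr10, the most abundant complex III gene, fell in H/R (log2 change −0.22 ± 0.044 (SE), adjusted p = 0.0153) and did not pass in EGR1OV (−0.046, adjusted p = 0.426).

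In complex IV, cytochrome c oxidase, 14 of 16 genes were tested, and all 14 had a log2 change under 0 in EGR1OV against Sham. Of these 9 passed the test, 7 of the 10 ubiquitous subunits, the supercomplex factor Cox7a2l and the isoform Cox6b2. In H/R 3 were lower. None was higher in either comparison, at an adjusted or an unadjusted p under 0.05 or with limma voom. By the adjusted p, 19.8% of all genes were lower and 26.1% higher in EGR1OV, and 7.54% lower and 4.15% higher in H/R. Cox6a1, the most abundant, measured 230.2, 224 and 239.8 FPKM in Sham, 189.7, 212 and 187 FPKM in H/R and 200.2, 205 and 197 FPKM in EGR1OV. Both groups lay under Sham (log2 change −0.20 ± 0.048 (SE), adjusted p = 0.00700 in EGR1OV and log2 change −0.24 ± 0.048 (SE), adjusted p = 0.0159 in H/R), in 20 and 16 of 20 alternatives. Cox7b had the largest fall of the complex in EGR1OV (log2 change −0.25 ± 0.060 (SE), adjusted p = 0.00793), from 59.6, 55.9 and 62.0 FPKM to 50.1, 47.3 and 51.7 FPKM. Cox6b1, Cox7a2 and Cox8a were also lower in EGR1OV (−0.24, −0.21 and −0.16), in 17, 16 and 12 of 20 alternatives, and Cox6b2 passed in 8 of the 19 in which it was tested, whereas Cox4i1, the ubiquitous isoform of its subunit, did not pass (−0.12, adjusted p = 0.0609). Against H/R no complex IV gene passed in EGR1OV in either direction, with 1 lower at an unadjusted p under 0.05 and 2 lower with limma voom. By the adjusted p, 32% of all genes were higher and 19% lower in this comparison.

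Isoforms of complex IV that are known from muscle, lung or testis stayed minor in all groups. Cox4i2, the lung isoform, made up 0.838% ± 0.0685 of the summed FPKM of Cox4i1 and Cox4i2 in Sham (SD, n = 3), 0.927% ± 0.271 after H/R and 0.915% ± 0.302 with EGR1OV. Cox7a1, the heart and muscle isoform, made up 1.45% ± 0.218, 1.66% ± 0.515 and 1.71% ± 0.766 of the sum with Cox7a2, and Cox6b2, known from testis, 3.23% ± 0.237, 3.44% ± 0.706 and 3.10% ± 0.186 of the sum with Cox6b1. These shares overlapped between groups, and by the exact two-sided permutation test their p was 0.5 or more. Cox6a2 and Cox8b, the other muscle isoforms, were listed at 0 in all Sham libraries and did not exceed 0.18 FPKM in any library. Cox6a2 was above 0 in every EGR1OV library, at 0.0884%, 0.0439% and 0.0444% of its sum with Cox6a1 (exact two-sided permutation test against Sham, p = 0.1). It was tested only with no filter on low values, where it passed in EGR1OV against Sham (log2 change 0.16). Its levels lie under the 0.5 FPKM filter. 

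All 16 complex V genes were tested. In EGR1OV 13 were lower than in Sham, and in H/R 5 were lower, against 19.8% and 7.54% of all genes. None was higher in either, at an adjusted or an unadjusted p under 0.05 or with limma voom. Limma voom gave 14 and 10 lower, and its share over all genes is not given. Of all genes 26.1% were higher in EGR1OV and only 4.15% in H/R, so the 0 in H/R says little for so few genes. The F1 head carries the catalytic sites. Its gene Atp5a1 (alpha) measured 169.7, 167 and 171 FPKM in Sham and 169, 170.2 and 173 FPKM in EGR1OV, which overlap (0.012, adjusted p = 0.756). Atp5b (beta) measured 255, 257 and 264 FPKM in Sham, 238, 239 and 231 FPKM in H/R and 242, 240.1 and 252 FPKM in EGR1OV. It was lower in both groups, by little (log2 change −0.080 ± 0.028 (SE), adjusted p = 0.0409 in EGR1OV, passing in 9 of 20 alternatives, and log2 change −0.13 ± 0.028 (SE), adjusted p = 0.0192 in H/R, passing in 13). Atp5d (delta) was lower in EGR1OV and in H/R (−0.15 and −0.19, adjusted p = 0.0157 and 0.0195), in 17 and 14 of 20 alternatives. Atp5e (epsilon) passed in EGR1OV and not in H/R (−0.15, adjusted p = 0.0146, against −0.10 and 0.143 in H/R), and Atp5c1 (gamma) passed in neither (−0.11 and −0.13). The 4 peripheral stalk genes and the 3 membrane genes beside the c ring were all lower in EGR1OV, with log2 changes of −0.25 to −0.18 and −0.26 to −0.19.

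The c ring, the rotor through which protons flow, is encoded by Atp5g1, Atp5g2 and Atp5g3, which give the same mature protein. Atp5g1 (chr11:96068852-96075670) had the largest fall of any member in H/R, with 11.9, 11.2 and 12.6 FPKM in Sham, 9.32, 9.78 and 8.44 FPKM in H/R and 10.5, 10.9 and 10.4 FPKM in EGR1OV. The groups were ordered without overlap, H/R lowest and EGR1OV between (log2 change −0.34 ± 0.057 (SE), adjusted p = 0.00702 in H/R and log2 change −0.16 ± 0.057 (SE), adjusted p = 0.0486 in EGR1OV, the second in 10 of 20 alternatives). Atp5g2 fell in H/R and in EGR1OV (−0.24 and −0.20, adjusted p = 0.0259 and 0.0159), in 13 and 19 of 20 alternatives. Atp5g3 passed in EGR1OV (−0.23, adjusted p = 0.00155) but not in H/R (−0.13, adjusted p = 0.0765). As shares of their sum, Atp5g1 took 10.5% ± 0.282 in Sham, 9.23% ± 0.536 after H/R and 10.8% ± 0.734 with EGR1OV (SD, n = 3). Atp5g3 was 57.1% ± 0.400, 59.5% ± 1.48 and 56.4% ± 0.746. Annotated exon bases were 4912 for Atp5g1, 1675 for Atp5g2 and 2181 for Atp5g3, so the shares are compared between groups only. The H/R shares of Atp5g1 lay under, and those of Atp5g3 above, the shares in both other groups (exact two-sided permutation test, p = 0.1, the smallest that 3 against 3 allows, over 9 isoform shares compared in each of 3 pairs of groups).

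Atp5o and Atp5k were lower in EGR1OV than in both other groups. Atp5o, the oligomycin sensitivity subunit of the peripheral stalk, measured 24.1, 23.7 and 25.3 FPKM in Sham, 23.9, 24.4 and 24.6 FPKM in H/R and 22.2, 20.9 and 21.04 FPKM in EGR1OV. H/R overlapped Sham, and EGR1OV lay under both (log2 change −0.18 ± 0.034 (SE), adjusted p = 0.00220 against Sham and log2 change −0.18 ± 0.034 (SE), adjusted p = 0.00205 against H/R). Atp5k, a small membrane subunit linked to dimer formation, measured 28.9, 26.9 and 26.7 FPKM in Sham, 30.5, 25.7 and 27.6 FPKM in H/R and 21.6, 22.2 and 24.9 FPKM in EGR1OV, again with EGR1OV under both (log2 change −0.26 ± 0.069 (SE), adjusted p = 0.0134 against Sham). Both were chosen after their values were seen, for their direction in EGR1OV against H/R. Exons of Atp5o share 47.9% of their bases with other annotated genes, mostly antisense genes, and reads could not be split between them.

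**Figure D3:**
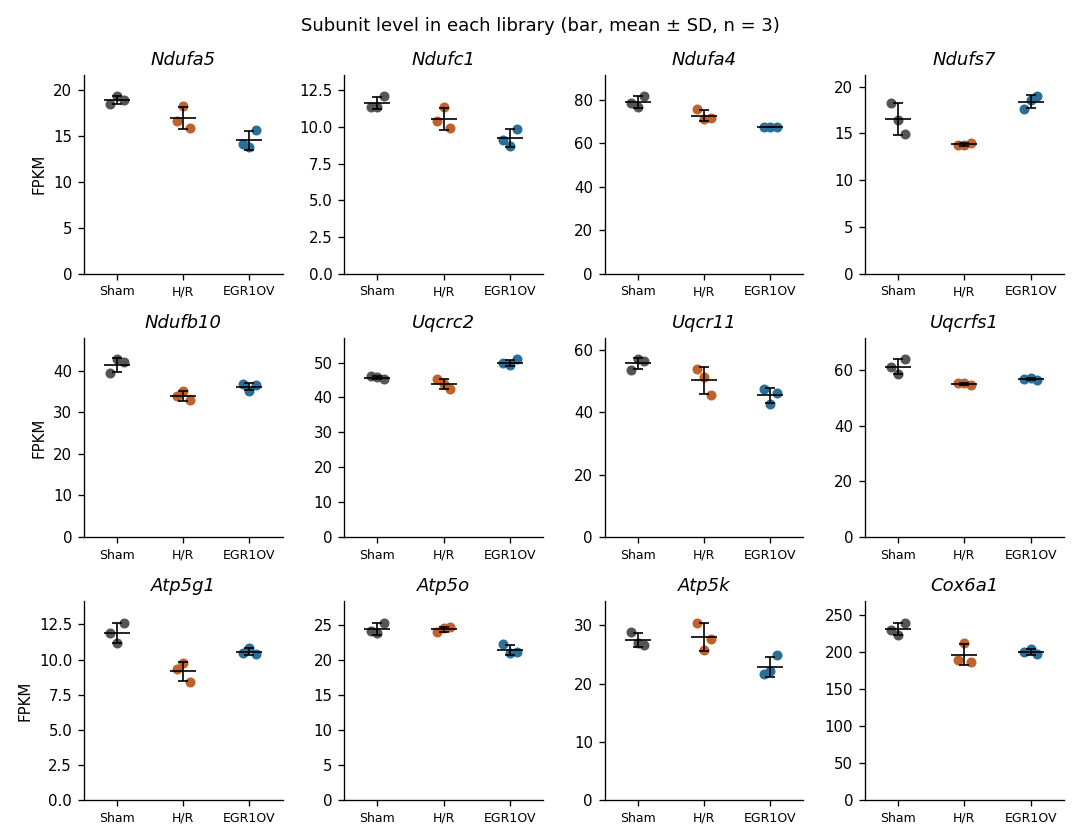
FPKM of 12 subunits in each of the 9 libraries, with the mean and SD (n = 3) in black and axes from 0. Ndufa5, Ndufc1, Ndufa4 and Uqcr11 have their lowest mean in EGR1OV, Ndufs7, Ndufb10 and Atp5g1 have it in H/R, and Uqcrc2 has its highest mean in EGR1OV.

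Subunits encoded by mitochondrial DNA fell in EGR1OV. Of 13 genes 12 were tested, and all 12 were lower in EGR1OV than in Sham, against 19.8% of all genes. Their median log2 change was −0.90 (−46.3%), with a range of −1.26 to −0.52. In H/R none passed in either direction (0 also at an unadjusted p under 0.05 and with limma voom), and the median was −0.011. Only 7.54% of all genes were lower and 4.15% higher in H/R, so the count of 0 says little for 12 genes. mt-Cytb, the mitochondrially encoded subunit of complex III, measured 2753, 2793 and 2889.5 FPKM in Sham, 2772, 2723 and 2813 FPKM in H/R and 1197, 1113 and 1206 FPKM in EGR1OV (log2 change −1.26 ± 0.036 (SE), adjusted p = 4.50e-09 in EGR1OV). mt-Co3 of complex IV and mt-Nd6 of complex I fell next most (−1.07 and −1.05, adjusted p = 4.67e-04 and 1.24e-05). The recorded levels of the 12 differed widely, and the low ones are measured less well. Sham means were 7239 FPKM for mt-Co1, 23.3 FPKM for mt-Co3 (SE of its log2 change 0.158), 5.62 FPKM for mt-Nd4l and 3.09 FPKM for mt-Nd3. The largest fall of a nuclear subunit in EGR1OV, Ndufa5 at −0.36, was smaller than the smallest fall of a mitochondrial one, −0.52.

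Cytochrome c and the subunits that the naming rule leaves out were measured beside them. Cycs, which encodes cytochrome c, had 29.5, 27.9 and 31.5 FPKM in Sham, 25.3, 26.5 and 25.8 FPKM in H/R and 32.9, 32.2 and 36.7 FPKM in EGR1OV, and rose in EGR1OV (log2 change 0.19 ± 0.056 (SE), adjusted p = 0.0205). Cyc1, cytochrome c1 of complex III, and Ndufab1, the acyl carrier subunit of complex I, passed in neither comparison with Sham (0.10 and −0.11 in EGR1OV). Of 48 assembly factors tested, 13 were higher and 10 lower in EGR1OV, and 0 higher (1 at an unadjusted p under 0.05) and 4 lower in H/R. These counts were near the shares of all genes, 26.1% higher and 19.8% lower in EGR1OV and 4.15% and 7.54% in H/R. Cox18, which helps insert a mitochondrially encoded subunit of complex IV into the membrane, rose most, from 6.01, 6.39 and 6.24 FPKM in Sham to 14.3, 13.9 and 12.4 FPKM in EGR1OV (log2 change 1.01 ± 0.059 (SE), adjusted p = 8.96e-07). The complex I assembly genes Foxred1 (0.59) and Ndufaf6 (0.41) followed. Tmem70, an assembly gene of the ATP synthase named after its values were seen, fell by the most of these factors, from 64.4, 65.7 and 61.4 FPKM in Sham to 39.4, 36.4 and 41.0 FPKM in EGR1OV (log2 change −0.70 ± 0.050 (SE), adjusted p = 3.32e-06), with 60.3, 55.1 and 55.9 FPKM in H/R. In H/R the falls were led by the complex IV assembly gene Cmc2 (−0.51), the complex III assembly gene Uqcc2 (−0.35) and the complex IV assembly gene Coa3 (−0.31). Of 9 regulators of mitochondrial gene expression tested, 3 were higher in EGR1OV (Pprc1, Esrra and Polrmt) and 2 lower (Gabpa and Tfb2m), also near the shares of all genes, and none passed in H/R (2 higher and 1 lower at an unadjusted p under 0.05).

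Other gene families were set beside the subunits for scale. The 77 mitochondrial ribosomal proteins had 27 higher and 6 lower in EGR1OV (median log2 change 0.086) and 0 higher and 11 lower in H/R (median −0.085), with 1 higher in H/R at an unadjusted p under 0.05. Over all genes 26.1% were higher and 19.8% lower in EGR1OV, and 4.15% and 7.54% in H/R. Of 88 genes with symbols of cytosolic ribosomal proteins, 2 were higher and 68 lower in EGR1OV (median −0.18), and 0 were higher and 29 lower in H/R (median −0.11). This list was taken by symbol among the rows labeled protein-coding. It includes rows named as pseudogenes, such as Rpl10-ps3, and genes such as Rps19bp1 and Rpl7l1, the last with the largest rise in EGR1OV (0.38). The medians of the nuclear-encoded subunits, −0.15 and −0.13, were thus near those of the cytosolic ribosomal proteins in both comparisons, and the difference between the lists was not tested.

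**Figure D4:**
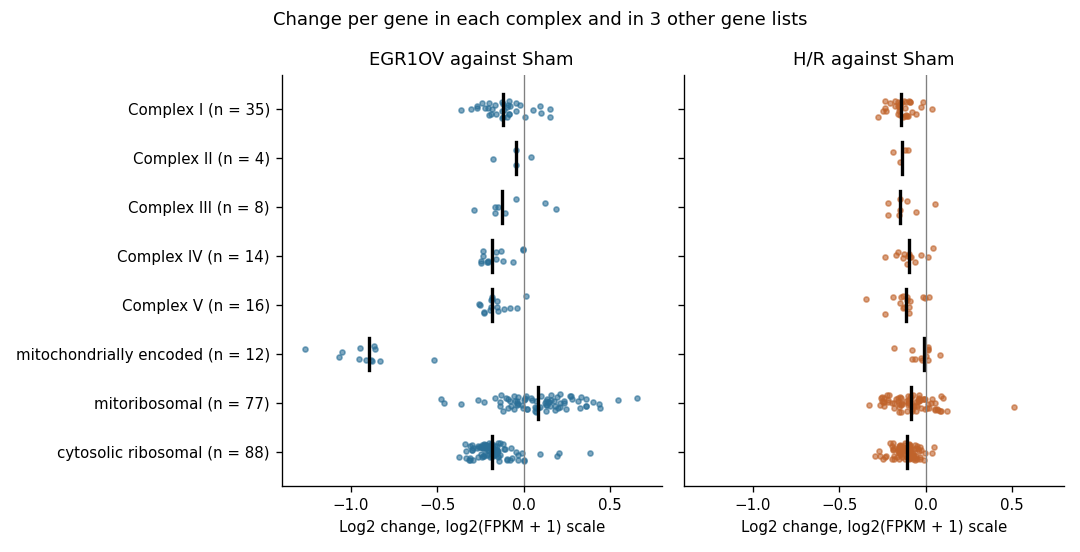
Log2 change of each tested gene, in EGR1OV against Sham (left) and H/R against Sham (right), for the 5 complexes, the mitochondrially encoded subunits, the mitochondrial ribosomal proteins and the cytosolic ribosomal proteins, with the median of each as a black bar. The mitochondrially encoded subunits stand at a median of −0.90 in EGR1OV and −0.011 in H/R, and the 5 complexes have medians of −0.18 to −0.043 in EGR1OV and −0.15 to −0.099 in H/R.

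The members have fewer annotated exon bases than most genes, and among them the shorter classes had the lower median log2 change. Exon bases here are counted over all annotated exons of a gene and are not transcript lengths. The tested members have a median of 1587 exon bases, against 3905 over all genes tested, and in EGR1OV against Sham the 19 members under 1000 bases had a median log2 change of −0.18, the 30 from 1000 to under 2000 bases −0.16 and the 28 of 2000 bases or more −0.093. Over all genes these medians were −0.051, −0.0020 and 0.027. In H/R the 3 classes had medians of −0.15, −0.14 and −0.10 among members and −0.057, −0.062 and −0.025 over all genes. Spearman's rho between exon length and log2 change over the 77 members, which share libraries, was 0.29 in EGR1OV and 0.21 in H/R, against 0.024 and 0.10 over all genes with a length. With the length trend removed from all genes, 38 members were lower in EGR1OV and 6 in H/R. The shares of all genes under this setting are not given, so these counts cannot be set against them. Exons of 29 members share bases with another annotated gene, and strand was not stated for the counting. Among members with no shared base, a smaller set than the 77, 31 were lower in EGR1OV and 19 in H/R.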

How the data were processed

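The authors deposited 1 table of FPKM values per gene for 9 libraries in 3 groups of 3. The submitters' processing notes name mm9, HISAT2 2.1.0, Bowtie2 2.2.3 and TopHat2, whereas the gene positions in the table equal those of GENCODE M21 (GRCm38) for 94.8% of the matched genes, and coordinates are given on GRCm38 only for members whose positions are equal. Whether counting used strand is not given in the sources used here. From the FPKM steps and exon lengths, 98.7% of 154344 low values came out as whole reads within 0.02 reads, at 16183617 to 18384022 reads per library. The main test was limma 3.58.1 (R 4.3.3, empirical Bayes with a trend, two-sided) on log2(FPKM + 1) with all 9 libraries, for the 13985 genes whose mean reached 0.5 FPKM, with Benjamini-Hochberg adjustment over all of them. Changed means an adjusted p under 0.05, and called means this with a fold of 1.3 (1.2 for H/R against Sham). The script was tested on simulated data. Tables were handled with Python 3.11.15. Date-damaged symbols were restored for 26 genes.

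Members and lists were chosen with earlier results of these data known. Members were named by 5 rules: the 5 largest non-overlapping changes each way against Sham, the catalytic core subunits, the isoform sets, the most and least abundant gene of each complex, and Egr1. Other named members, such as Atp5o, Atp5k and Cox7b, were named after their values were seen. Of the members these rules select, 1 is not reported here by name and is kept in the counts. Assembly factors, mitochondrially encoded subunits, ribosomal proteins and regulators were counted as whole lists. Same-numbered replicates did not deviate together throughout (correlations of −0.195 to 0.263 over 7588 genes), so the numbers were not used as pairs.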

Additional observations from a re-analysis of the deposited data

How the results depend on the processing

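No member past the threshold changed direction under any alternative run. In EGR1OV against Sham, the 2 higher members became 1 with median-ratio scaling, with the replicate block, without limma's trend and with protein-coding sum scaling, 0 with quantile normalization, and 1 to 3 when 1 replicate was left out. The 40 lower members became 35 with the replicate block and 23 to 43 when 1 replicate was left out, and the median of −0.15 became −0.21 with quantile normalization and −0.18 with protein-coding sum scaling. In H/R against Sham, the 24 lower members became 7 with no filter on low values, 7 with median-ratio scaling, 6 with the length trend removed, 13 with the replicate block, 11 without limma's trend, 15 with only the groups compared, 15 with protein-coding sum scaling, and 7 to 20 when 1 replicate was left out, while the median of −0.13 became −0.087 with median-ratio scaling and −0.075 with the length trend removed. In EGR1OV against H/R, the 12 higher members became 6 with median-ratio scaling, 6 with quantile normalization, 7 with the length trend removed and 7 with protein-coding sum scaling. The 7 lower members became 19, 26, 17 and 20 under the same settings, 4 with only the groups compared, and 2 to 12 when 1 replicate was left out, and the median of 0.0068 became −0.054, −0.081, −0.041 and −0.049. The cause of these shifts was not tested. Shares of all genes under the alternative settings are not given, so the counts of members cannot be set against them. The replicate block moved the other counts by less than 1.5 times. Protein-coding sum scaling and the members with no shared exon base were chosen after seeing the data. With 3 libraries a group, an exact permutation test of 1 gene cannot pass.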
